A study of Mus musculus with 90 samples.

Results

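Polyamine metabolism was followed through 10 genes, namely Odc1, Amd1, Srm, Sms, Azin1, Oaz1, Oaz2, Sat1, Smox, and Paox, out of 24312 gene symbols in the RPKM table. The members were picked by symbol, and where a symbol had several RefSeq transcripts, the one with the largest average RPKM (a read density per unit of transcript and of sequencing depth) across the 54 RNA libraries was taken. The study asked how feeding controls the liver transcriptome of mice kept on night-restricted feeding (NRF), and it manipulated the glucocorticoid receptor (GR), insulin signaling, and diet in separate experiments. RNA was sequenced in 5 experiments, and GR peaks, FOXO1 peaks, and DNase hypersensitive sites (DHSs) were listed from ChIP-seq and DNase-seq of the same feeding routine.

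All mice were on a C57BL/6 background by their labels, given in the study's methods as C57BL/6N for the uninjected, injected, and L-GRKO experiments and C57BL/6J for the L-IRSdKO mice, and were trained to NRF, with food during the dark phase only, with lights off at zeitgeber time (ZT) 12, and each library came from a single liver. In the uninjected experiment, 10-week-old wild-type males were taken at ZT10, at ZT14 without food (ZT14-unfed), or at ZT14 after food was given at ZT12 (ZT14-fed), with n = 2 in each group and ribosome-depleted RNA. In the injected experiment, 10-week-old wild-type mice received vehicle (PBS), dexamethasone (dex, a synthetic glucocorticoid) at 1 mg/kg, S961 (a peptide antagonist of the insulin receptor) at 44 nM per mouse as labeled, or both agents 30 minutes before ZT12, and livers were taken at ZT14 from fed vehicle, fed dex, fed S961, fed dex + S961, and unfed vehicle mice (n = 4 each). In the L-IRSdKO experiment, 10-week-old mice with floxed Irs1 and Irs2 that carried or lacked a Cre driven by the albumin promoter were compared, and both groups had been injected with dex and fed (n = 4 each). In the L-GRKO experiment, adult mice with floxed Nr3c1 were given AAV-CRE or AAV-GFP, both driven by the liver-specific Tbg promoter, 2 weeks before NRF as labeled, and both groups were unfed at ZT14 (n = 4 each). In the obesity experiment, mice were put on a high-fat diet (obese) or chow (lean) at 5 weeks of age for 10 weeks, and were taken unfed or fed at ZT14 (n = 3 each). These 4 experiments used poly(A)-enriched RNA by their labels, so levels were compared within an experiment.

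The polyamines putrescine, spermidine, and spermine are small cations that bind nucleic acids and support translation and growth, and the liver both makes and recycles them. ODC (Odc1) converts ornithine to putrescine, AMD1 (Amd1) decarboxylates S-adenosylmethionine to supply aminopropyl groups, and SRM and SMS add these groups to give spermidine and spermine. Antizymes (Oaz1 and Oaz2) bind ODC and send it to the proteasome, the antizyme inhibitor AZIN1 takes antizyme away from ODC, and SAT1, SMOX, and PAOX acetylate or oxidize polyamines for breakdown or export. Much of this control acts on translation and protein stability, which RNA levels do not show.

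The libraries of each experiment differed in depth by a factor of 1.23 (L-IRSdKO) to 2.06 (injected mice) between the deepest and the shallowest, as read from the smallest step of the RPKM values; absolute depths were not in the values used. No 2 libraries held identical values. Nr3c1 was 12.8 to 16.2 RPKM in AAV-GFP livers and 3.93 to 5.35 in AAV-CRE livers, and Irs1 was 2.21 to 4.73 RPKM in floxed controls and 0.149 to 0.321 in L-IRSdKO livers, whereas Irs2 overlapped between the latter groups (0.614 to 5.61 and 0.272 to 1.00 RPKM) and was not called. The 5 hepatocyte markers examined (Alb, Ttr, Apoa1, Apob, and Tat) were present in every library, with a summed level of 27940 to 73620 RPKM in 4 experiments and of 2195 to 2676 RPKM in the L-IRSdKO experiment. In bulk liver, fewer cells of a type and less RNA per cell cannot be told apart.

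In mm9 the members lie at chr12:17551679-17558308 (Odc1, plus strand), chr10:40007265-40021992 (Amd1, minus strand), chr15:38417185-38449021 (Azin1, minus strand), chr10:80289401-80292035 (Oaz1, plus strand), chr9:65515808-65538107 (Oaz2, plus strand), chr4:147965612-147969102 (Srm, plus strand), chrX:153881787-153930219 (Sms, minus strand), chr2:131317232-131351658 (Smox, plus strand), chrX:151647675-151650992 (Sat1, minus strand), and chr7:147311556-147320233 (Paox, plus strand). Several member transcripts resemble other places in the genome, which may bear on the levels of those members below and was not tested. Of the 50-base windows of a member's transcript, the share found elsewhere in mm9 was 0% for Azin1 and Smox, 4.65% for Srm, 41.0% for Sat1, 41.7% for Sms, 55.1% for Odc1, 60.4% for Oaz2, 78.1% for Paox, 82.2% for Oaz1, and 90.2% for Amd1. The retrocopy Amd2 on chromosome 10 followed Amd1 with r = 1 over the 20 libraries of injected mice, so reads of the pair could not be separated. Other annotated copies were Gm9786 for Oaz1, Gm10307 for Paox, and Gm14680 for Sms. How the authors treated reads with several matches is not given in the sources used here. Mean levels in AAV-GFP livers were 17.8 times those of unfed vehicle livers for Oaz1, 5.36 times for Amd1, and 5.21 times for Paox. The ratios were 3.91 for Sms, 3.55 for Oaz2, 2.74 for Odc1, and 1.97 for Sat1. They were 1.46 for Smox, 1.43 for Srm, and 0.921 for Azin1. Genotype, virus, injection, and preparation cannot be told apart in such ratios.

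Sequences are shown for the promoters of Odc1 and Amd1, the members called in the most comparisons (5 of 16 each), and for 4 bound sites near members. In the RefSeq promoter windows of GRCm38.p6 (250 bases before to 50 after the start), GC boxes (GGGCGG) and TATAA were searched on both strands and are in capitals. The Odc1 window (chr12:17544623-17544922, plus strand) held 4 GC boxes and no TATAA. The Amd1 window (chr10:40302139-40302438, minus strand) held 1 GC box and a stretch in which TATAA matches on both strands overlap.
Odc1 promoter: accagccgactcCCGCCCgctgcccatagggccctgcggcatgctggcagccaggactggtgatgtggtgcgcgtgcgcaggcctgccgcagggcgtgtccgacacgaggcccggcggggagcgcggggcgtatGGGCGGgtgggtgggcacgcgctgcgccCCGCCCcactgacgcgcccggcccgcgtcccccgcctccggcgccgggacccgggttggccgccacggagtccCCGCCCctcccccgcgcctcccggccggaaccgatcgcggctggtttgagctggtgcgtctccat
Amd1 promoter: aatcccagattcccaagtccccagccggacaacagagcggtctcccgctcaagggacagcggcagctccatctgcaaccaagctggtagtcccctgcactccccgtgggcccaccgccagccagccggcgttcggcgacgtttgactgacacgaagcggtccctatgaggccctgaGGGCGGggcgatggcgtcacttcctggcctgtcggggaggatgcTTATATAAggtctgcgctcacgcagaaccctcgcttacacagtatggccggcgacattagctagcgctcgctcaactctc
Of 32851 promoter windows, 35.7% held a GC box and 24.9% held TATAA. The E-box CACGTG (7.15% of windows), the cAMP response element TGACGTCA (1.79%), the GRE core ACANNNTGT (6.85%), and the FOXO sequence GTAAACA (3.65%) were found in neither window. Of the windows of 8 members (all but Srm and Azin1), the E-box was present in 1 of the 2 of Sms.

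GR peaks lay within 50 kb of the start of 5 of the 10 members (Odc1, Amd1, Srm, Azin1, and Paox), which compares with 48.5% of 9834 tested genes with a position, and FOXO1 peaks within 50 kb of 5 members (Amd1, Azin1, Oaz1, Oaz2, and Paox), which compares with 51.2%. The peak lists came from unfed livers, hold positions only, and contain 10446 GR peaks and 8546 FOXO1 peaks. Within 20 kb, GR peaks were near 2 members (30.4% of genes) and FOXO1 peaks near 3 (33.8%). A DHS was found within 50 kb of all 10 members, as of 99.7% of genes, and the nearest one was centered at most 0.247 kb from the start for 9 members and at -1.66 kb for Oaz2.

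**Figure D1:**
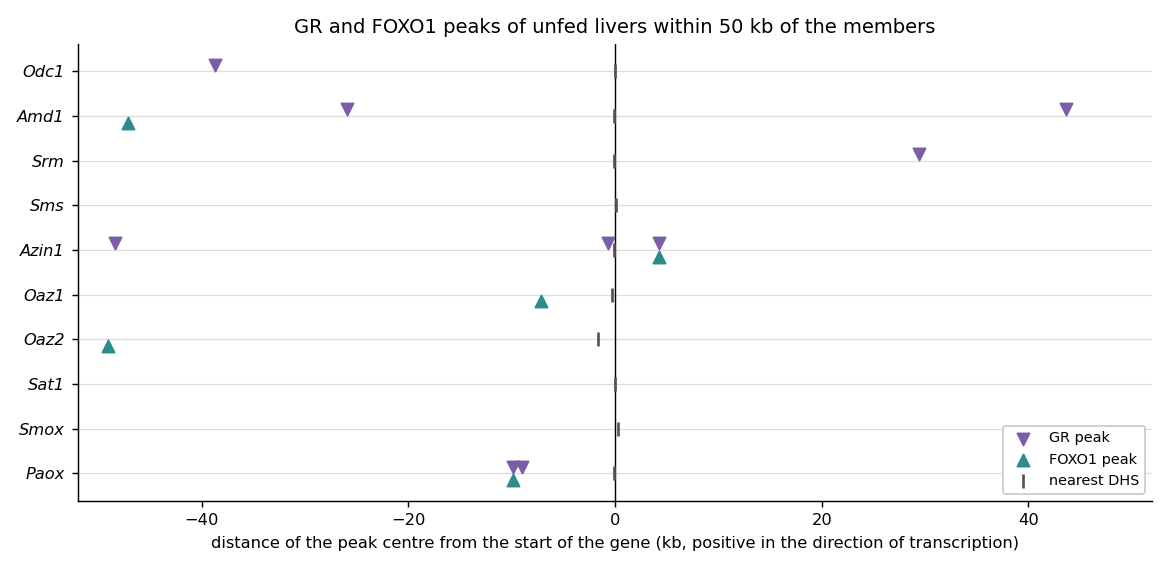
Distance in kb of each GR peak, FOXO1 peak, and nearest DHS from the start of the 10 members, with positive distances in the direction of transcription. Both factors have peaks at the same places in Azin1 and upstream of Paox, and Sms, Sat1, and Smox have neither within 50 kb.

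The first bound site shown lies in an intron of Azin1 and was listed for both factors, as the FOXO1 peak chr15:38444641-38444820 and the GR peak chr15:38444661-38444840 of mm9, 4.29 kb and 4.27 kb into the gene. It holds a FOXO sequence (capitals), which was present in 18.8% of FOXO1 peaks. The second is the pair of GR and FOXO1 peaks upstream of Paox, at -9.87 and -9.88 kb from its start and in an intron of Echs1, shown by the GR peak (chr7:147301594-147301773). The third is the GR peak 43.6 kb past the start of Amd1 (chr10:39978299-39978478), which overlaps an annotated U3 small RNA and holds a GRE core (capitals), a sequence present in 20.3% of GR peaks. The fourth is the only GR peak within 50 kb of Odc1 (chr12:17512893-17513072), at -38.7 kb and outside annotated genes. All are given on the plus strand.
Azin1 intron: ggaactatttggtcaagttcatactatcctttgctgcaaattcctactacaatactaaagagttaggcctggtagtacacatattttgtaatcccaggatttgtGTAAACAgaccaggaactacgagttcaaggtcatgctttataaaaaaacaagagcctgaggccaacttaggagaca
Paox upstream: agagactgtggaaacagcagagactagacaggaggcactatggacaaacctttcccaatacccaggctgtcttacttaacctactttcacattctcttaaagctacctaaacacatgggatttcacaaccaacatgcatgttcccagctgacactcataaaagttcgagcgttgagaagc
Amd1 downstream: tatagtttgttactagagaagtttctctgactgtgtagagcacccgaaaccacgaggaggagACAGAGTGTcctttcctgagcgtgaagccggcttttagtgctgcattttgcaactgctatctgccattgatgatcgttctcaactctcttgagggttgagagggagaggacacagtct
Odc1 upstream: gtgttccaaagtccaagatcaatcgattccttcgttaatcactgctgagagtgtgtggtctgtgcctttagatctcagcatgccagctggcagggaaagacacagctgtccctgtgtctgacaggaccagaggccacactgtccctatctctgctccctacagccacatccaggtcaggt
Neither the GRE core nor the FOXO sequence was found in the Paox and Odc1 sites, which says only that these letters are not in these windows.

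RNA of the enzymes that make putrescine, aminopropyl donors, and spermidine was higher after feeding, with Srm called in all 4 meal comparisons, Odc1 in 3, and Amd1 in 2. Odc1, the rate-limiting enzyme of putrescine synthesis, was 9.001 and 7.58 RPKM in ZT14-unfed livers and 11.4 and 13.02 in ZT14-fed livers. The groups did not overlap, which with n = 2 held for all tested members but Oaz1 and Paox. The share of all genes without overlap was not counted, here or below. The log2 fold change (of RPKM + 0.5, ± SE) was 0.53 ± 0.12 with an adjusted limma p of 0.0435. Srm, which makes spermidine, was 2.43 and 2.43 RPKM unfed and 4.45 and 6.62 fed, the largest of the 3 differences (1.02 ± 0.19, adjusted p = 0.0265). Amd1 was 1.57 and 1.11 RPKM unfed and 2.48 and 2.26 fed, and its difference of 0.65 ± 0.17 missed the threshold (adjusted p = 0.067). Thus 2 of the 9 members tested were called, that is, had an adjusted p below 0.05, and both were higher, against 6.77% of 10907 genes. The median log2 fold change was 0.14 among the members and 0.12 among all genes. With libraries scaled to a common median ratio, which brings the median of all genes to about 0 in this and every other comparison, Odc1 was higher by 0.40 and was no longer called (adjusted p = 0.0858). Odc1 also lost its call without ZT14-unfed replicate 2 or either ZT14-fed library (adjusted p = 0.0966 to 0.274), and Srm without either ZT14-unfed library or ZT14-fed replicate 2 (adjusted p = 0.0536 to 0.152).

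The same 3 enzymes were examined after vehicle injection. Srm was 14.96, 17.3, 14.98, and 15.04 RPKM in unfed vehicle livers and 22.4, 24.6, 28.2, and 30.2 in fed vehicle livers, and Amd1 was 2.11, 2.38, 1.89, and 2.62 unfed and 5.05, 3.87, 3.60, and 3.16 fed. Neither gene overlapped between the groups, and both were called, Srm with 0.73 ± 0.16 (adjusted p = 0.0178) and Amd1 with 0.67 ± 0.17 (adjusted p = 0.035). Odc1 was 9.98, 9.90, 9.74, and 12.5 RPKM unfed and 18.02, 18.02, 15.2, and 11.8 fed, where replicate 4 of the unfed group lay above replicate 4 of the fed group, and its difference of 0.55 ± 0.15 was not called (adjusted p = 0.0569). Replicate 4 of every injected group carried library numbers from another series than replicates 1 to 3. Odc1 was called when the fit held a term for the library number series. In replicates 1 to 3 alone, a subset chosen after seeing the data, Odc1 was higher by 0.76 (adjusted p = 0.00751). Replicate 4 alone is 1 library a group. Here 2 of 9 members were called, both higher, against 3.13% of 11251 genes, with a median of 0.13 among the members and 0.10 among all genes. Amd1 lost its call under median-ratio scaling (adjusted p = 0.0736) and without any one of replicates 1 to 3 of either group (adjusted p = 0.0615 to 0.108), and Srm without unfed vehicle replicate 1 or 3 (adjusted p = 0.0551 to 0.0552). Odc1 gained one without replicate 4 of either group (0.024 and 0.0465). Of 4 Kupffer cell markers, 2 were also higher in fed vehicle livers, with summed levels of 61.3 to 95.9 RPKM fed and 42.1 to 58.2 unfed, none at 0, and the part of such cells in the result was not tested.

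In lean mice of the obesity experiment, all 3 enzymes rose after the meal. Odc1 was 10.1, 9.57, and 9.03 RPKM in unfed and 14.9, 14.8, and 14.2 in fed lean livers (0.59 ± 0.13, adjusted p = 0.00973). Amd1 was 1.39, 1.82, and 1.51 RPKM unfed and 2.52, 3.07, and 2.97 fed (0.70 ± 0.13, adjusted p = 0.00414). Srm was 13.2, 13.1, and 14.9 RPKM unfed and 29.7, 39, and 25.5 fed (1.14 ± 0.17, adjusted p = 0.00136). In all 3 genes every fed library was above every unfed library, and they were the only members called, 3 of 9 against 23.4% of 11434 genes. The median was 0.18 among the members and 0.08 among all genes. All 4 endothelial markers were lower in the fed group (summed level of 49.1 to 59.3 RPKM unfed and 36.1 to 42.5 fed, none at 0), and the part of such cells was not tested.

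In obese mice, Odc1 was 6.27, 9.09, and 7.50 RPKM unfed and 11.02, 14.6, and 11.1 fed, and Srm was 13.2, 11.6, and 13 unfed and 18.5, 28.9, and 24.8 fed. Both rose without overlap, by 0.65 ± 0.13 (adjusted p = 0.017) and 0.89 ± 0.17 (adjusted p = 0.0132). Amd1 was 1.78, 1.24, and 1.24 RPKM unfed and 2.02, 2.02, and 2.30 fed, with an adjusted p of 0.0563. Together with a fall of Azin1 given below, 3 of 9 members were called, 2 higher and 1 lower, against 7.65% of genes, and the median was -0.10 among the members and 0.02 among all genes. The calls of Odc1 and Srm were lost without the obese fed replicate 2 (adjusted p = 0.073 and 0.0638), that of Srm also without obese fed replicate 3 (0.0561), and Amd1 gained one without obese unfed replicate 1 (0.0236).

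Whether the meal effect differed between the diets was tested by the interaction. No member was called (limma, 0 of 9, against 0.743% of genes called). At an unadjusted p below 0.05 there was 1 member. The share of all genes at that unadjusted level was not counted, here or below. The difference between the meal effects was 0.06 ± 0.19 for Odc1 (95% interval -0.35 to 0.48), -0.24 ± 0.18 for Amd1 (-0.65 to 0.17), and -0.26 ± 0.24 for Srm (-0.78 to 0.27). Each interval spans 0. Medians were -0.26 among the members and -0.07 among all genes. Between obese and lean livers, limma called 0 of 9 members in the unfed state, against 5.22% of genes, and 0 of 9 in the fed state, against 0.499%. At an unadjusted p below 0.05 there were 1 unfed and 4 fed. Fed obese livers had 2.02, 2.02, and 2.30 RPKM of Amd1 and fed lean livers 2.52, 3.07, and 2.97, which did not overlap, with -0.36 ± 0.13 and an adjusted p of 0.173. Azin1 and Oaz1 (lower in fed obese livers) and Sat1 (higher) did not overlap between these groups either. The medians were 0.05 among the members and 0.07 among all genes unfed, and -0.26 among the members and 0.01 among all genes fed. In the unfed state, 3 of 4 endothelial markers were lower in obese livers and 0 were higher. Their summed level was 28.9 to 37.7 RPKM in obese and 49.1 to 59.3 in lean livers, and the part of such cells was not tested.

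**Figure D2:**
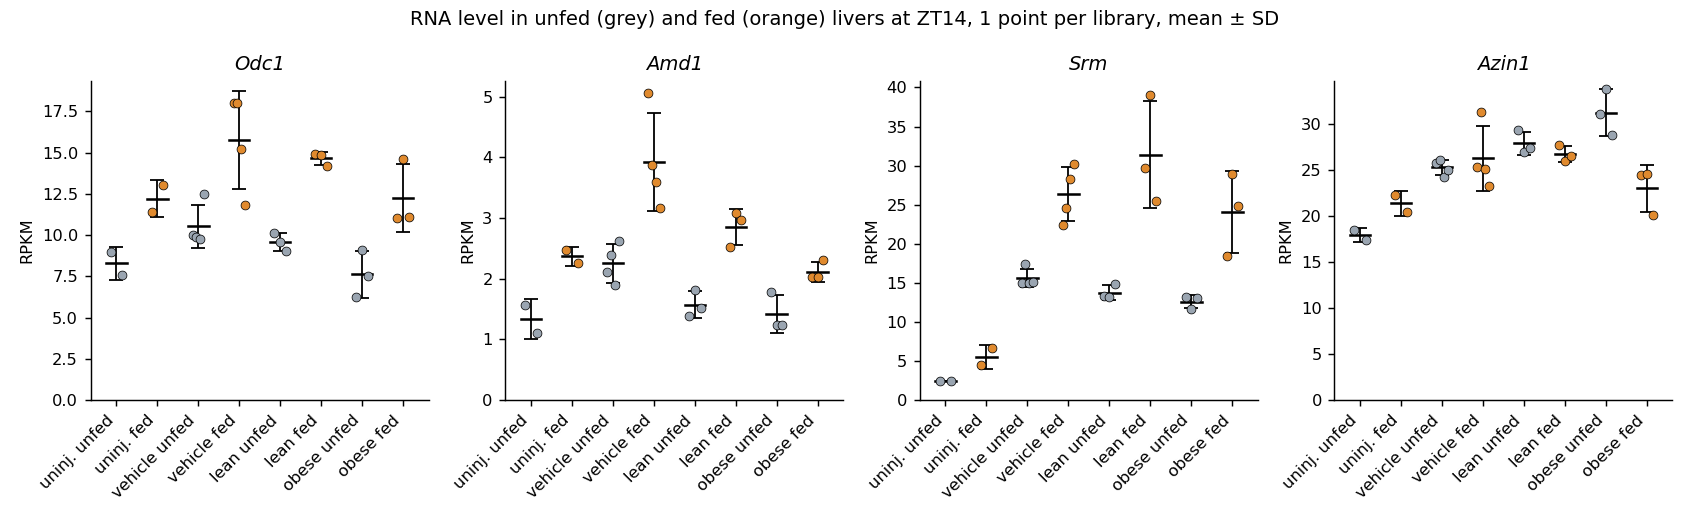
RPKM of Odc1, Amd1, Srm, and Azin1 in each unfed (grey) and fed (orange) library at ZT14, with lines at the mean and bars of 1 SD (n = 2, 4, 3, and 3 per group for uninjected, vehicle, lean, and obese mice). Fed points lie above unfed points in every experiment for Amd1 and Srm and overlap only after vehicle for Odc1, while Azin1 is lower in fed obese livers.

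Between ZT10 and ZT14 without food, none of the synthesis enzymes was called. Odc1 went from 5.93 and 6.21 RPKM at ZT10 to 9.001 and 7.58 at ZT14-unfed (0.41 ± 0.12, adjusted p = 0.0745), and Amd1 from 2.28 and 1.67 to 1.57 and 1.11 (-0.43 ± 0.17, adjusted p = 0.17). These 2 differences had opposite signs, although each pair of groups was apart, as for every member tested here (n = 2). Under median-ratio scaling Odc1 was called as higher (0.53, adjusted p = 0.0403). The ZT14-unfed libraries serve in this comparison and in the meal comparison of uninjected mice.

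Blocking the insulin receptor in fed mice lowered Amd1. Amd1 was 2.63, 1.96, 1.82, and 1.38 RPKM in fed S961 livers against 5.05, 3.87, 3.60, and 3.16 in fed vehicle livers. Every S961 value lay below every vehicle value, and the log2 fold change was -0.86 ± 0.17 (adjusted p = 0.0104). Odc1 was 13.4, 11.8, 13.6, and 9.30 RPKM after S961, overlapping with fed vehicle (-0.38 ± 0.15, 95% interval -0.70 to -0.05, adjusted p = 0.267). Srm was 24.7, 20, 18.1, and 15.4 RPKM and also overlapped (-0.43 ± 0.16, -0.76 to -0.10, adjusted p = 0.195). Amd1 was the only member called, 1 of 9 against 1.9% of genes, and the median was -0.15 among the members and -0.08 among all genes. When fed S961 and fed vehicle mice were fitted without the other groups, Amd1 had the same fold change and an adjusted p of 0.128. The 2 Kupffer cell markers that were higher in fed vehicle livers were lower after S961 (summed level 40.8 to 63.8 RPKM), and their part was not tested. The fed vehicle libraries are the reference of this comparison and one side of the vehicle meal comparison, so the 2 results are not independent.

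In a separate set of fed mice, Amd1 and Odc1 were lower in L-IRSdKO livers than in livers with intact insulin receptor substrates. Amd1 was 6.85, 7.34, 4.58, and 6.06 RPKM in floxed controls and 2.73, 3.84, 2.25, and 2.36 in L-IRSdKO livers, and Odc1 was 23.3, 17.9, 15.6, and 20.5 and 14.4, 12.9, 12.6, and 10.6. Neither gene overlapped between the genotypes, and the log2 fold changes were -1.03 ± 0.19 (adjusted p = 0.0101) and -0.59 ± 0.14 (adjusted p = 0.0227). Srm was 60.2, 47.6, 37.6, and 58.3 RPKM in controls and 38.4, 41.9, 40.1, and 34.01 in L-IRSdKO livers, where the control replicate 3 was the lowest of its group, and was not called (-0.38 ± 0.15, adjusted p = 0.111). Sms, which makes spermine and was tested only in the knockout experiments, was 0.814, 0.697, 0.402, and 0.590 RPKM in controls and 1.22, 0.632, 0.635, and 0.330 in L-IRSdKO livers and overlapped widely. In all, 2 of 10 members were called, both lower, against 17.4% of 12966 genes, with a median of -0.12 among the members and 0.03 among all genes. The call of Odc1 was lost without any one of 5 libraries (adjusted p = 0.0501 to 0.0657), while Amd1 stayed called without each, and Srm gained a call without control replicate 3 (-0.51, adjusted p = 0.0253). Of the markers of other cell types, 2 of 4 endothelial (81.9 to 108.4 RPKM in controls, 83.4 to 126.0 in L-IRSdKO livers), 1 of 4 Kupffer cell (137.3 to 244.8 and 237.8 to 280.2), and 2 of 3 stellate cell markers tested (100.8 to 120.3 and 126.7 to 145.4) were higher in L-IRSdKO livers. Of 3 cholangiocyte markers tested, 1 was lower, and their summed levels did not overlap (3.44 to 5.43 RPKM in controls, 1.65 to 2.91 in L-IRSdKO livers). The part of these cells was not tested.

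None of the synthesis enzymes was called after dex in fed mice. Amd1 was 4.29, 4.19, 5.03, and 5.26 RPKM and Odc1 16.3, 17.6, 21.7, and 15.5 in fed dex livers, and both overlapped with fed vehicle (differences of 0.24 ± 0.17 with a 95% interval of -0.11 to 0.60, and 0.18 ± 0.15 with -0.15 to 0.50). No member was called by limma, 0 of 9 against 3.19% of genes called, with 1 at an unadjusted p below 0.05. The median was 0.16 among the members and -0.10 among all genes. Fed dex and fed S961 livers differed in Amd1 by 1.10 ± 0.17 (adjusted p = 0.000315) and in Odc1 by 0.55 ± 0.15 (adjusted p = 0.0339), both without overlap and higher after dex. The call of Odc1 was lost without any one of 5 libraries, dex replicates 1 to 3 and S961 replicates 2 and 4 (adjusted p = 0.0518 to 0.117). These were 2 of 9 members, against 7.47% of genes, and the median was 0.19 among the members and -0.01 among all genes. In replicates 1 to 3 alone, a subset chosen after seeing the data, Smox (0.67, adjusted p = 0.0357) and Azin1 (-0.48, adjusted p = 0.0121) were called as well. Of 4 endothelial markers, 1 (Kdr) was lower after dex than after S961 (summed level of 35.1 to 50.7 RPKM after dex and 49.2 to 54.9 after S961, none at 0), and the part of such cells was not tested. Against fed vehicle (53.2 to 62.1 RPKM), 2 of these 4 were lower after dex and 0 were higher. Of 4 Kupffer cell markers, 1 was lower and 0 were higher (38.9 to 62.7 RPKM after dex, 61.3 to 95.9 after vehicle), and their part was not tested either.

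With dex + S961, Amd1 was 3.37, 2.12, 3.36, and 2.32 RPKM, Odc1 was 16.3, 11.4, 14.6, and 12.7, and Srm was 22.7, 14.8, 22.7, and 16.6. In each gene the values overlapped with both the unfed vehicle and the fed vehicle group. Against fed vehicle, Amd1 differed by -0.43 ± 0.17 (adjusted p = 0.111) and Srm by -0.46 ± 0.16 (adjusted p = 0.0667), and neither was called. With a term for the library number series, Srm was called as lower and Amd1 was not called. The departure from the sum of the single effects, a test of the interaction, was 0.18 ± 0.24 for Amd1 (95% interval -0.31 to 0.68) and 0.01 ± 0.22 for Odc1 (-0.44 to 0.47). No member was called by limma in this test, 0 of 9 against 0% of genes called, with 0 at an unadjusted p below 0.05. The median was 0.04 among the members and 0.03 among all genes.

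**Figure D3:**
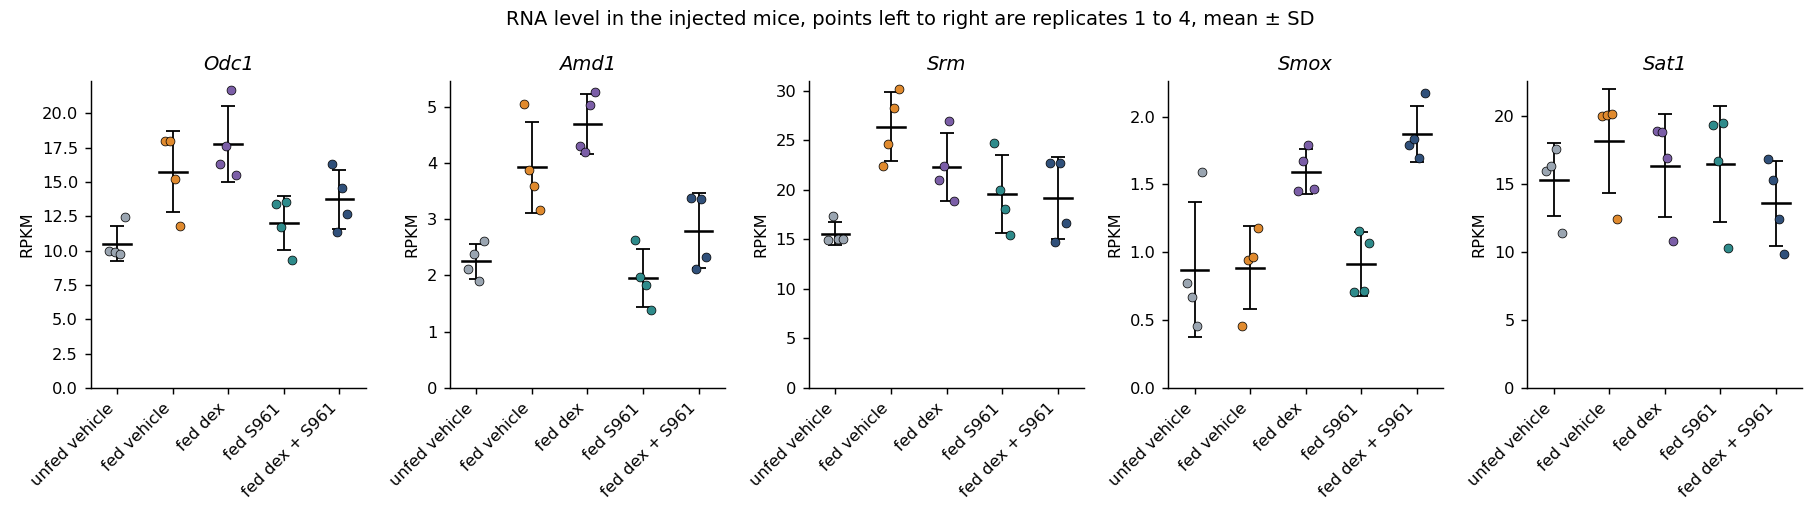
RPKM of Odc1, Amd1, Srm, Smox, and Sat1 in each library of the 5 injected groups, with lines at the mean and bars of 1 SD (n = 4), and points from left to right for replicates 1 to 4. Amd1 is lower after S961 than after vehicle or dex in fed mice, Smox in both groups with dex lies above every fed vehicle point (called with dex + S961, not with dex alone), and Sat1 is lowest in replicate 4 of every group.

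No member was called after loss of GR in unfed livers. Odc1 was 28.8, 24.8, 32.3, and 29.5 RPKM in AAV-GFP livers and 24.1, 26.4, 27.9, and 23.7 in AAV-CRE livers (-0.17 ± 0.10, 95% interval -0.39 to 0.05). Amd1 was 11.7, 10.8, 13.1, and 12.6 RPKM in AAV-GFP and 12.5, 8.92, 8.52, and 10.5 in AAV-CRE livers (-0.25 ± 0.13, -0.54 to 0.03). The groups overlapped for every member. Limma called 0 of 10 members, against 6.68% of 11649 genes, with 1 (Sat1) at an unadjusted p below 0.05. The median was 0.10 among the members and 0.08 among all genes.

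**Figure D4:**
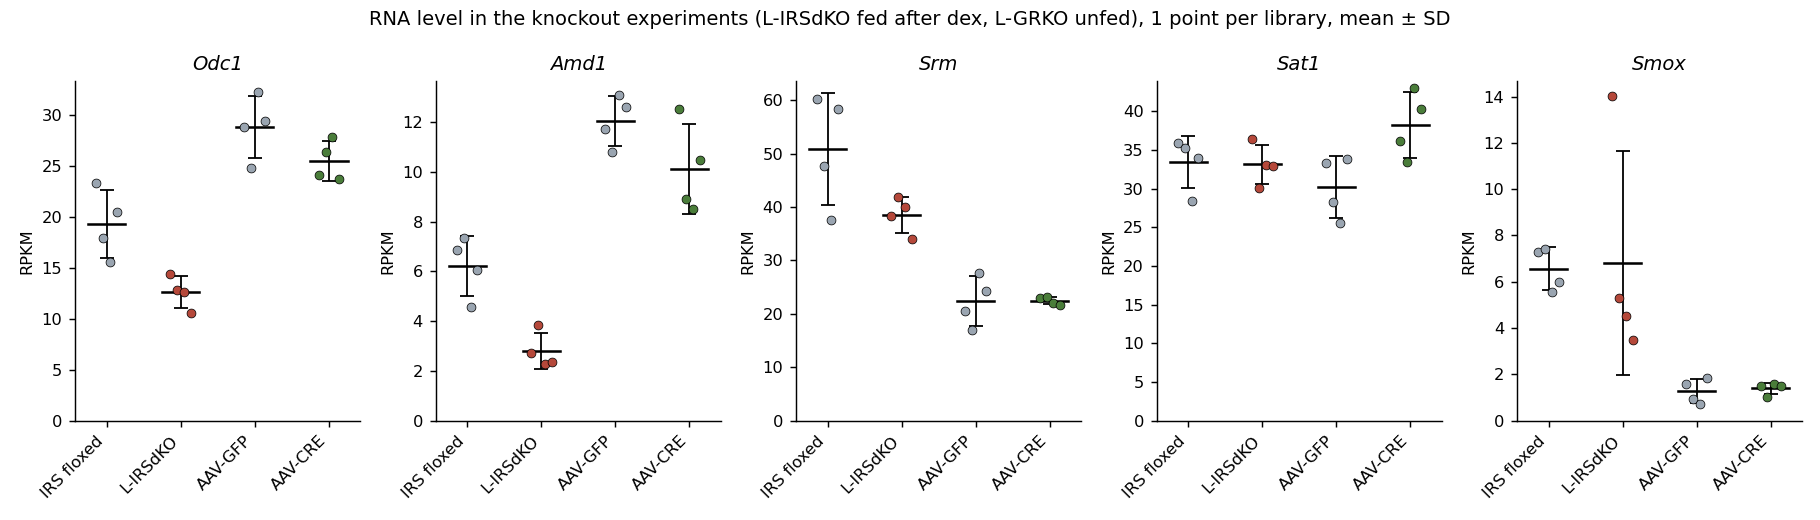
RPKM of Odc1, Amd1, Srm, Sat1, and Smox in each library of the L-IRSdKO experiment (fed, after dex) and the L-GRKO experiment (unfed), with lines at the mean and bars of 1 SD (n = 4). Amd1 and Odc1 are lower in L-IRSdKO livers than in their controls, and AAV-CRE and AAV-GFP points overlap in all 5 genes.

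Among the regulators of ODC, only Azin1 was called. Azin1 fell between ZT10 (23.8 and 23.9 RPKM) and ZT14-unfed (18.4 and 17.4 RPKM). The groups were apart, as with n = 2 were those of every member tested in this comparison. The difference was -0.40 ± 0.09, with an adjusted p of 0.0422. Together with Sat1, 2 of 9 members were called in this comparison, both lower, against 8.95% of 10907 genes, and the median was -0.30 among the members and -0.10 among all genes. The call of Azin1 was lost under median-ratio scaling (adjusted p = 0.14) and without any one of the 4 libraries (0.0757 to 0.17). The ZT14-fed values of 22.3 and 20.4 RPKM lay above the ZT14-unfed values and were not called (0.25 ± 0.09, adjusted p = 0.14). In obese mice, Azin1 was 31.1, 33.9, and 28.8 RPKM unfed and 24.5, 24.6, and 20.1 fed, without overlap, and fell by 0.43 on the log2 scale (adjusted p = 0.0205), a call lost without obese unfed replicate 2 (0.0554) or obese fed replicate 3 (0.0688). In lean mice it was 29.3, 26.98, and 27.4 RPKM unfed and 27.7, 26, and 26.6 fed, and the difference between the diets' meal effects was -0.38 ± 0.13 with an adjusted p of 0.219.

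The antizymes were not called in any of the 16 comparisons. Oaz1 was 3.80 to 19.7 RPKM in all libraries outside the L-GRKO experiment and 190 to 242 in the latter. The lowest value was in fed S961 replicate 3, whose group mates were at 9.47 to 10.4 RPKM. Oaz1 was 13.8, 11.7, 14.4, and 12.5 RPKM in floxed controls and 11.5, 10.4, 11.7, and 9.57 in L-IRSdKO livers (-0.27 ± 0.10, adjusted p = 0.107), which overlapped. Oaz2 ranged from 2.71 to 3.74 RPKM in uninjected mice and from 8.003 to 9.95 RPKM in the L-IRSdKO experiment, and replicate 4 was the highest library of 4 of the 5 injected groups (3.98 to 4.4 RPKM). Its log2 fold changes over the comparisons ran from -0.35 to 0.24.

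Among the breakdown enzymes, Smox, which oxidizes spermine, was higher with dex + S961. Smox was 1.79, 1.83, 1.70, and 2.17 RPKM in fed dex + S961 livers, 0.460, 0.942, 0.965, and 1.18 in fed vehicle livers, and 0.776, 0.667, 0.458, and 1.59 in unfed vehicle livers. All 4 values with both agents were above all vehicle values, by 0.80 ± 0.20 against fed vehicle (adjusted p = 0.0169) and 0.85 ± 0.20 against unfed vehicle (adjusted p = 0.0317). Smox was the only member called in either comparison, 1 of 9 against 10.6% and 2.32% of genes, which share the dex + S961 libraries. The medians were -0.18 among the members and -0.14 among all genes for the first, and 0.14 among the members and -0.04 among all genes for the second. With dex alone Smox was 1.45, 1.68, 1.79, and 1.46 RPKM, also above every fed vehicle value, and was not called (0.62 ± 0.20, adjusted p = 0.102). In replicates 1 to 3 alone, a subset chosen after seeing the data, it was called after dex (0.75, adjusted p = 0.0271). With S961 alone it was 0.704, 1.16, 0.715, and 1.07 RPKM, within the range of the fed vehicle group. In the 8 L-IRSdKO and control livers, all after dex, Smox was 3.49 to 14.01 RPKM, and L-IRSdKO replicate 1 had the highest value. The pseudocount of 0.5 shrinks fold changes at such low levels. In the injected mice the call against unfed vehicle was lost without any one of 7 libraries (adjusted p = 0.0571 to 0.132), and that against fed vehicle without fed vehicle replicate 1 (0.062) or dex + S961 replicate 4 (0.0517). Of 4 Kupffer cell markers, 3 were lower with both agents than in fed vehicle livers (summed level 50.1 to 58.9 RPKM), as was 1 of 3 stellate cell markers tested (52.9 to 75.7 RPKM with both agents and 53.04 to 103.3 in fed vehicle livers), and their part was not tested.

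Sat1, which acetylates spermidine and spermine and limits the rate of breakdown, was 16.9 and 15.8 RPKM at ZT10 and 11.02 and 10.7 at ZT14-unfed. The groups did not overlap, as for every member tested in this comparison (n = 2). Sat1 was lower at ZT14-unfed (-0.57 ± 0.10, adjusted p = 0.02), also under median-ratio scaling, but not without ZT10 replicate 1 or 2 or ZT14-unfed replicate 2 (0.0632 to 0.0887). In the injected mice, Sat1 was 19.97, 20.1, 20.2, and 12.4 RPKM after fed vehicle and 16.9, 15.3, 12.4, and 9.82 after dex + S961, and replicate 4 was the lowest library in each of the 5 groups. Over all 4 replicates the difference was -0.41 ± 0.23 (adjusted p = 0.281). In replicates 1 to 3 alone, a subset chosen after seeing the data, it was -0.43 (adjusted p = 0.0207). In the L-GRKO experiment, Sat1 was 33.4, 28.3, 25.5, and 33.8 RPKM in AAV-GFP and 36.2, 33.4, 43.1, and 40.4 in AAV-CRE livers, with overlap (0.34 ± 0.12, adjusted p = 0.128). Paox, which oxidizes acetylated polyamines, was not called in any comparison and was 0.968 to 2.75 RPKM in the injected mice. Paox was 2.70, 2.15, 2.75, and 1.46 RPKM in unfed vehicle and 1.82, 1.55, 1.34, and 1.42 in fed vehicle livers (-0.42 ± 0.22, adjusted p = 0.311), which overlapped.

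**Figure D5:**
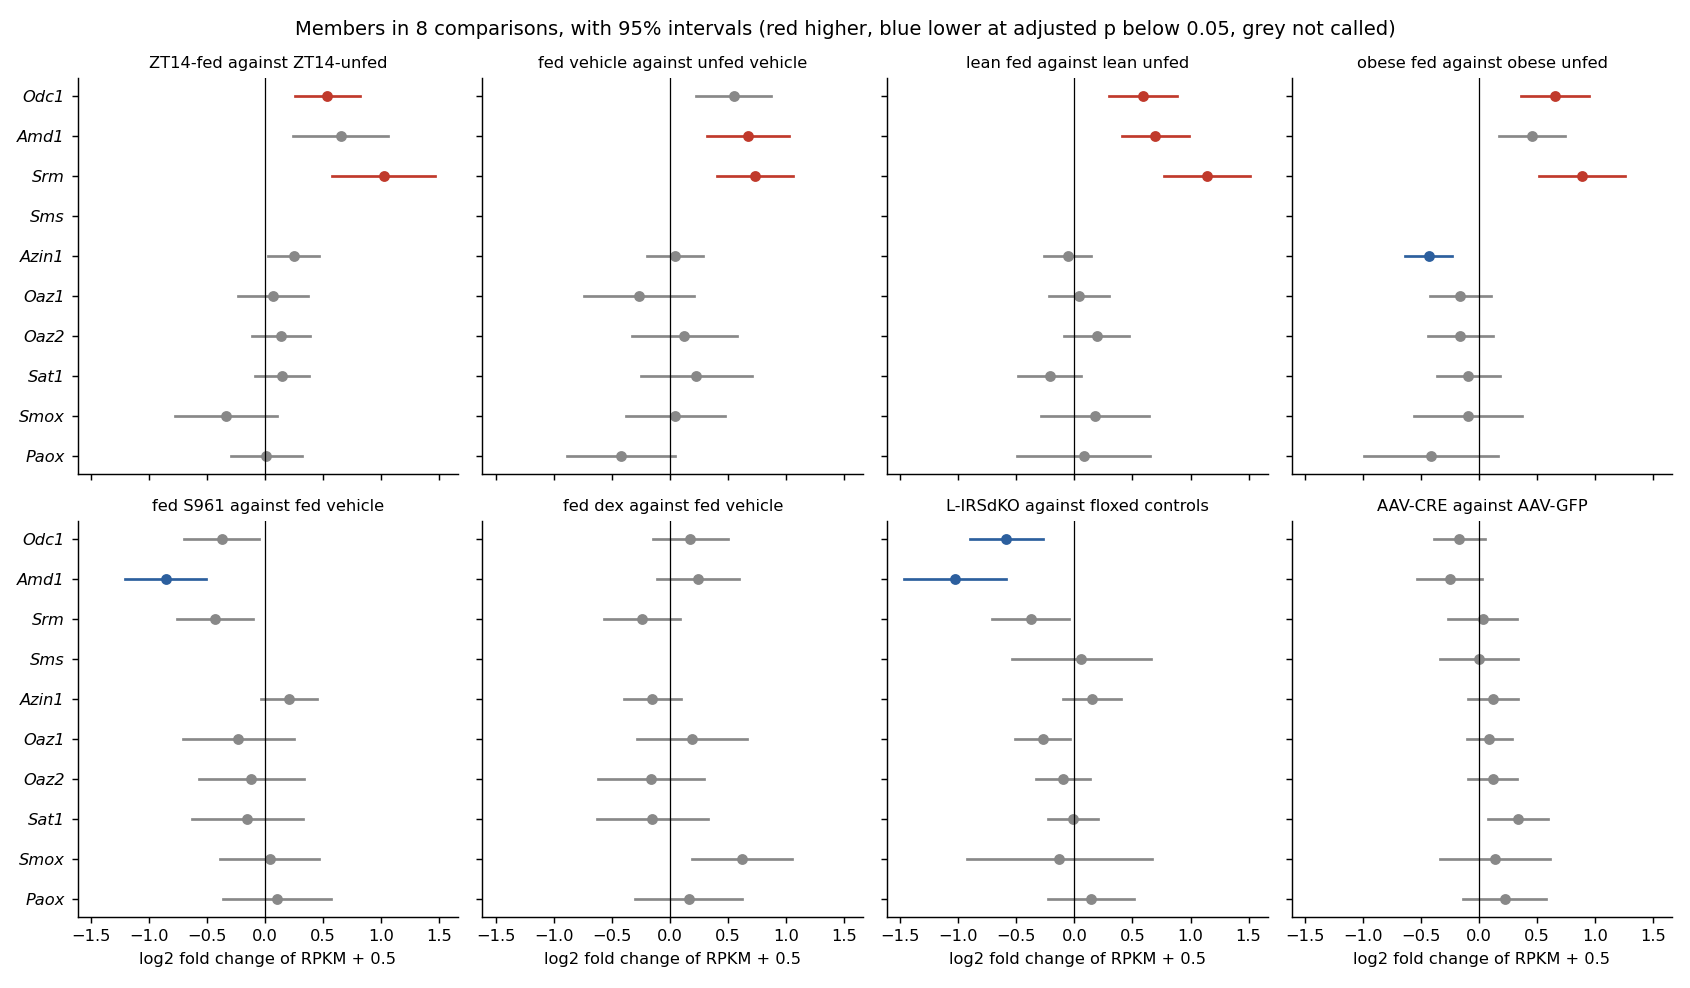
Log2 fold changes of RPKM + 0.5 with 95% intervals for the members tested in 8 comparisons, in red or blue where the adjusted limma p was below 0.05. Odc1, Amd1, and Srm lie to the right of 0 in the 4 meal comparisons and to the left of 0 after S961 and in L-IRSdKO livers, while the antizymes, Sat1, Smox, Paox, and (where tested) Sms are grey throughout.

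Genes around the pathway were counted by lists chosen beside the members, and each gene named was called in at least 2 comparisons. The copy Amd2 was called in the 5 comparisons in which Amd1 was called, with the same signs. Reads of the pair could not be separated, so Amd2 is not a further result. Of 8 genes of S-adenosylmethionine synthesis and methylthioadenosine salvage, 3 rose and 1 fell after the meal in lean mice (16.1% of all genes rose and 7.28% fell), with a median of 0.29 against 0.08 of all genes. Mtap, which recycles the methylthioadenosine left by SRM and SMS, fell between ZT10 and ZT14-unfed (-0.43 ± 0.10, adjusted p = 0.0463) and rose with food in uninjected (0.52 ± 0.10, adjusted p = 0.0317) and lean mice (0.60 ± 0.11, adjusted p = 0.00372).

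Mat2a, which makes S-adenosylmethionine, rose in fed lean livers (0.59 ± 0.12, adjusted p = 0.00522) and was lower after dex than after S961 (-0.90 ± 0.18, adjusted p = 0.00269). Its regulatory subunit Mat2b fell in fed lean livers (-0.45 ± 0.14, adjusted p = 0.0384) and between ZT10 and ZT14-unfed (-0.41 ± 0.09, adjusted p = 0.0422). Mat1a, the hepatocyte form, rose between ZT10 and ZT14-unfed (0.61 ± 0.14, adjusted p = 0.0412) and was higher with dex + S961 than in fed vehicle (0.67 ± 0.18, adjusted p = 0.0215) and in L-IRSdKO livers (0.32 ± 0.07, adjusted p = 0.0198). Apip, an enzyme of methionine salvage, was lower in L-IRSdKO livers (-0.70 ± 0.15, adjusted p = 0.0144) and higher with dex + S961 than in unfed vehicle (0.44 ± 0.11, adjusted p = 0.0458).

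Of 6 polyamine transporters, 1 rose and 1 fell in fed lean livers, where 16.1% of all genes rose and 7.28% fell, with a median of 0.13. The lysosomal polyamine exporter Atp13a2 was lower in fed lean livers (-0.31 ± 0.10, adjusted p = 0.0443), after S961 (-0.60 ± 0.15, adjusted p = 0.0486), and after dex + S961 (-0.53 ± 0.15, adjusted p = 0.0318). The vesicular transporter Slc18b1 rose in fed lean livers (0.53 ± 0.17, adjusted p = 0.0434) and was lower after dex than after S961 (-0.68 ± 0.19, adjusted p = 0.0309).

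Of 5 genes of the Myc network tested in lean mice, 2 fell with food, where 7.28% of all genes fell, with a median of -0.06. Mxd1, which pairs with MAX at E-boxes, was lower in fed lean livers (-0.62 ± 0.12, adjusted p = 0.00424) and after S961 (-0.79 ± 0.14, adjusted p = 0.00561), and higher after dex than after S961 (0.87 ± 0.14, adjusted p = 0.000439). Genes of hypusine formation on eIF5A, which uses spermidine, had 1 call over the 16 comparisons. It was a rise in fed lean livers (1 of 3 tested, where 16.1% of all genes rose). Those of ornithine and arginine supply had a different gene called as lower in each of 3 comparisons. These were dex against S961 (1 of 3 tested, with 4.64% of all genes lower), loss of GR (1 of 3, with 2.22%), and L-IRSdKO (1 of 4, with 8.31%).

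Over the libraries of an experiment, Odc1 and Amd1 moved together to different degrees. Pearson's r of their log2 levels was 0.864 over the 20 injected, 0.877 over the 8 L-IRSdKO and control, and 0.750 over the 12 obesity libraries, against 0.372 over the 6 uninjected and 0.307 over the 8 L-GRKO libraries. These are descriptions across libraries that share groups, and no test was made. Over the injected libraries, the genes with the most similar pattern were Tacc1 (r = 0.889), Pik3r1 (0.879), and Arf6 (0.871) for Odc1, Amd2 (1), Gcnt4 (0.941), and Stim2 (0.893) for Amd1, and Agxt2 (0.929) and Ube4a (0.907) for Sat1.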

How the data were processed

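RNA of 54 mouse livers was sequenced in 5 experiments. The authors aligned reads to mm9 with STAR, normalized them to RPKM per RefSeq transcript, and called regulated genes with DESeq2 on counts; the deposited table holds RPKM. The authors called GR, FOXO1, and DHS peaks with HOMER, and the deposited lists hold positions, used here for descriptions only, since they hold no heights. GR and FOXO1 lists were concordant between replicates, and DHSs came from combined reads. Of 35707 RefSeq IDs, 35407 had a symbol, making 24312 symbols, and 0 value columns were left unused.

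Here, log2(RPKM + 0.5) was fitted per experiment, for genes whose average reached 0.5 RPKM there, with limma 3.58.1 (eBayes with trend, R 4.3.3), 2-sided, with Benjamini-Hochberg adjustment over all genes tested, and genes were called at an adjusted p below 0.05. Fold changes on this scale understate the change of low genes. Sms was below the filter in 3 experiments. Python 3.11.15 with pandas 2.3.3, numpy 2.4.6, scipy 1.17.1, and matplotlib 3.10.9 was used for the rest. Peaks were joined to starts within 50 kb in the GENCODE annotation of mm9. The fit was tested on simulated data.

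Members and lists were chosen with earlier results of these data known. Named genes are the members, listed genes called in at least 2 of 16 comparisons, the targeted genes, and the 3 genes most correlated with Odc1, Amd1, and Sat1. Some genes that this rule names are not reported here. P-values measure the spread between these mice only. Scaling, filters, pseudocounts, distances, and single libraries were varied. Same-numbered replicates share only a number in the labels. The S961 dose and the AAV timing read differently in the methods and the labels, and the labels are followed, with the compound named as in the titles. ChIP-seq and DNase-seq signal was not analysed here.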

Additional observations from a re-analysis of the deposited data

Results flagged for a closer look

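In 90 sets of 4 libraries, 1 for each member and group, a library was marked when its gap to the nearest other library was a larger share of the group's range than Dixon's critical value, which chance gives in about 1 in 20 sets. It was met in 7 sets.

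Odc1 in unfed vehicle replicate 4 was 12.5 RPKM against 9.74 to 9.98 in the others (ratio 0.9154), and Sat1 in fed vehicle replicate 4 was 12.4 RPKM against 19.97 to 20.2 (0.9765). Both libraries belong to the second series of library numbers. Srm in unfed vehicle replicate 2 was 17.3 RPKM (0.9685). Oaz1 was 12.1 RPKM in fed dex replicate 2 (0.895) and 3.80 RPKM in fed S961 replicate 3 (0.8642). Sms was 0.595 RPKM in fed dex + S961 replicate 1 (0.8704), and Smox was 14.01 RPKM in L-IRSdKO replicate 1 (0.8295), where the other 3 were 3.49 to 5.29. No interaction of dex with S961 or of the meal with the diet was called for a member (0).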

How the results depend on the processing

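No member's value changed sign past the threshold: of 2654 recomputed values, 2533 kept their side of it, 73 lost a call, 27 gained one, and 21 moved by over 1 SD without a call. Counts of members called moved as follows. Without a filter on low values, they were 0 for ZT14-unfed against ZT10, 0 for ZT14-fed against ZT14-unfed, 1 for fed against unfed vehicle, 0 for dex + S961 against unfed vehicle, and 1 for dex against S961. A filter at 2 RPKM drops Smox in the injected mice and Amd1 in the obesity experiment. With this filter both dex + S961 counts were 0 and the lean meal count was 2. With all RefSeq IDs averaged, the count for dex + S961 against unfed vehicle was 0. Median-ratio scaling gave 1 in both the uninjected and the vehicle meal comparison, and quantile normalization gave 1 in these, 1 for ZT14-unfed against ZT10, and 1 for dex. Without the variance trend, both uninjected comparisons had 1. At a threshold of 0.01, counts were 0 for all but dex against S961 (1) and the lean meal (3). With the compared groups fitted alone, they were 1 for both uninjected comparisons, for vehicle, and for dex against S961, and 0 for S961, for dex + S961 against unfed vehicle, and for the obese meal. GR peaks were near 2 and 8 members within 20 and 100 kb, and FOXO1 peaks near 3 and 6.

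With a term for the library number series, dex had 1, dex + S961 against fed vehicle 3, and dex against S961 4 members called, and with replicates 1 to 3 alone, chosen after seeing the data, 1, 2, and 4. In the vehicle meal, Odc1 gained a call under both settings, and Amd1 and Srm kept theirs. With the replicate block, counts were 1 in both uninjected comparisons, 1 for dex, 3 for dex + S961 against fed vehicle, 3 for the vehicle meal, and 3 for dex against S961. Deviations of same-numbered libraries correlated from -0.120 to 0.606 in injected mice (median 0.142, against -0.0506 for other numbers). In the obesity experiment they correlated from -0.201 to 0.215 (median -0.0370, against 0.0302 for other numbers). In the former, 12 of 20 libraries correlated best with their own number, and in the latter 4 of 12. The labels give only the number, and the main fit held no replicate term.

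Leaving out 1 library gave 0 to 1 for ZT14-unfed against ZT10, 0 to 2 for ZT14-fed against ZT14-unfed, 0 to 3 for the vehicle meal, 1 to 1 for S961, 0 to 2 and 0 to 1 for dex + S961 against fed and unfed vehicle, 1 to 3 for dex against S961, 1 to 3 for L-IRSdKO, 3 to 3 for the lean meal, 1 to 4 for the obese meal, and 0 to 0 elsewhere. The vehicle meal count was 0 without unfed vehicle replicate 1 or 3, and 3 without replicate 4 of either group. The uninjected meal count was 0 without ZT14-unfed replicate 2 or ZT14-fed replicate 2, and the ZT14-unfed against ZT10 count was 0 without ZT10 replicate 1 or 2 or ZT14-unfed replicate 2. Dex + S961 against fed vehicle had 0 without fed vehicle replicate 1 or dex + S961 replicate 4. Odc1 in dex against S961 was lost without dex replicate 1, 2, or 3 or S961 replicate 2 or 4, and Odc1 in L-IRSdKO without control replicate 1 or 4 or L-IRSdKO replicate 2, 3, or 4. The obese meal count was 1 without obese fed replicate 2 or 3. The cause of these changes was not tested. The read counts behind low values, such as those of Smox and Sms, are not in the values used.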
